A study of Mustela putorius furo and Mus musculus with 4 samples.

Results

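The genes of the proteasome, the protease complex that degrades ubiquitin-tagged proteins, were compared between cultured ferret and mouse astrocytes. Members were all symbols that begin with PSMA, PSMB, PSMC, PSMD, PSME, PSMF or PSMG followed by a number and that had a row in the tables of both species. This rule found 46 of the 13373 symbols shared by the species. Of these, 45 are proteasome genes, and the remaining match, Psmc3ip, encodes a partner protein of meiotic recombination and was kept apart.

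Poly(A) RNA was sequenced from 2 libraries of ferret and 2 libraries of ICR mouse primary astrocytes from the cerebral cortex. Ferrets were P1 and mice were P1 to P3, and no genetic change or drug was used in either group. In both species, mixed glia were grown with serum, freed of loosely attached cells by shaking, replated, and kept without serum before RNA extraction. The serum-free medium held supplements that included heparin-binding EGF-like growth factor and N-acetyl cysteine, in both species. Glia of 1 ferret pup were spread over several flasks, whereas glia of several mouse pups were pooled in a flask. Whether the 2 libraries of a species came from separate cultures was not stated, so that p-values measure only the spread between these libraries, which may be technical. Values are FPKM (fragments per kilobase of transcript, relative to all mapped fragments), a level corrected for transcript length. Species, genome assembly, gene models and culture cannot be told apart in this design.

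The 26S proteasome consists of a barrel-shaped 20S core, in which outer rings of alpha subunits gate the inner rings of beta subunits that hold the proteolytic sites, and of a 19S cap, in which a ring of ATPases unfolds the substrate and a lid removes its ubiquitin. Dedicated chaperones build the core and the base of the cap and leave the finished complex. Under interferon signalling, and constitutively in many immune cells, the catalytic beta subunits Psmb5, Psmb6 and Psmb7 are replaced by Psmb8, Psmb9 and Psmb10, which gives the immunoproteasome and alters the peptides available for antigen presentation.

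Each immunoproteasome subunit is a paralog of the subunit it replaces, and the sequences below show how far the members of each pair can be told apart by their reads in the mouse. Over the whole coding sequence, Psmb5 and Psmb8 were 67.0% identical across 784 aligned bases, Psmb6 and Psmb9 65.3% across 657 bases, and Psmb7 and Psmb10 63.7% across 810 bases. The most alike stretch of 60 bases within single coding exons is printed 5′ to 3′ for each pair, from the mouse genome GRCm38 with GENCODE M21 gene models, and capitals mark the bases that differ within the pair. The Psmb5 stretch lies at chr14:54616694-54616753 on the minus strand and that of Psmb8 at chr17:34199581-34199640 on the plus strand, with 11 differences. The Psmb6 stretch lies at chr11:70527210-70527269 on the plus strand and that of Psmb9 at chr17:34183143-34183202 on the minus strand, with 12 differences. The Psmb7 stretch lies at chr2:38640154-38640213 on the minus strand and that of Psmb10 at chr8:105937322-105937381 on the minus strand, with 17 differences.
Psmb5: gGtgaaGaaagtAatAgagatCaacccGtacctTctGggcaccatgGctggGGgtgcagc
Psmb8: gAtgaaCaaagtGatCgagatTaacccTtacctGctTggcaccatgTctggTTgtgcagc
Psmb6: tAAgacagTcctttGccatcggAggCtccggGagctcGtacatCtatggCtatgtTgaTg
Psmb9: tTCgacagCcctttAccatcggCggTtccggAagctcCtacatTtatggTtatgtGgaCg
Psmb7: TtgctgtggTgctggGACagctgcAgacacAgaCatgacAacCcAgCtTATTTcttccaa
Psmb10: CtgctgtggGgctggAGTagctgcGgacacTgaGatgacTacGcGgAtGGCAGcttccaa

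The libraries expressed astrocyte genes, and none of the 11 astrocyte markers was at 0 in either species. Gfap, the astrocyte intermediate filament, was at 1481 and 1522 FPKM in ferret and at 1429 and 1546 FPKM in mouse astrocytes. Of the 11, 8 were lower in both ferret libraries without overlap, whereas Aldoc and S100b were higher. Slc1a2 was at 0.133 and 0.178 FPKM in ferret and at 47.1 and 51.8 FPKM in mouse libraries. Summed markers of several other cell types differed between the species. Summed over 15 microglial markers, the level was 13.0 and 11.7 FPKM in ferret and 939 and 918 FPKM in mouse libraries. All 15 were lower in the ferret, 11 of them had a mean under 1 FPKM there, and Cx3cr1, a defining microglial receptor, was at 0 in both ferret libraries. Summed over 8 markers of fibroblasts and meninges, the level was 127 and 112 FPKM in ferret and 1576 and 1550 FPKM in mouse libraries. The 6 endothelial markers summed to 0.569 and 0.445 FPKM in ferret and to 25.2 and 25.7 FPKM in mouse libraries. Cdh5 alone made up most of the mouse sum, at 22.0 and 22.5 FPKM. Of the 6, 4 had a mean under 1 FPKM in the mouse as well, with Pecam1 at 0.0407 and 0.0312 FPKM and Cldn5 at 0 in both mouse libraries. Those of the oligodendrocyte lineage, 9 genes, summed to 169 and 188 FPKM in ferret and to 69.0 FPKM in each mouse library. The summed FPKM of all shared symbols ranged from 227391 to 236543 in ferret and from 300465 to 308122 in mouse libraries, and the median log2 difference of all genes tested was -0.35, ferret minus mouse. In such bulk RNA, fewer cells of a type and less RNA per cell cannot be told apart.

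Proteasome transcripts were abundant in both species, but their balance differed. The 45 genes together took 1.09% and 1.11% of the summed FPKM of shared symbols in ferret astrocytes and 1.01% in each mouse library. Of 43 members that reached a mean of 1 FPKM in at least 1 species, a single gene, Psmd5, was called higher in ferret astrocytes and 15 were called lower. Psmd5 reached that mean in the ferret alone, and Psmb8 and Psmb9 in the mouse alone, so that these 3 had to differ. A call required an adjusted p below 0.05 in limma and an absolute difference above 1 on the log2(FPKM + 1) scale. Higher calls made up 2.33% of the members and lower calls 34.9%, against a background of 13.1% higher and 30.1% lower among 10204 genes tested (43.2% in either direction). The share of lower calls among the members was thus close to that of all genes. Without the requirement on size, 14 members were higher and 28 lower in ferret astrocytes, against 32.4% higher and 56.2% lower of all genes (88.6% in either direction). The median log2 difference of the members was -0.59. None of the 43 members had overlapping libraries, which is near the 94.1% of all genes without overlap. The remaining members, the testis subunit Psma8 and the thymus subunit Psmb11, were at 0 in both ferret libraries. In the mouse libraries, Psma8 was at 0.707 and 0.436 FPKM and Psmb11 at 0.157 and 0.0060 FPKM.

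**Figure D1:**
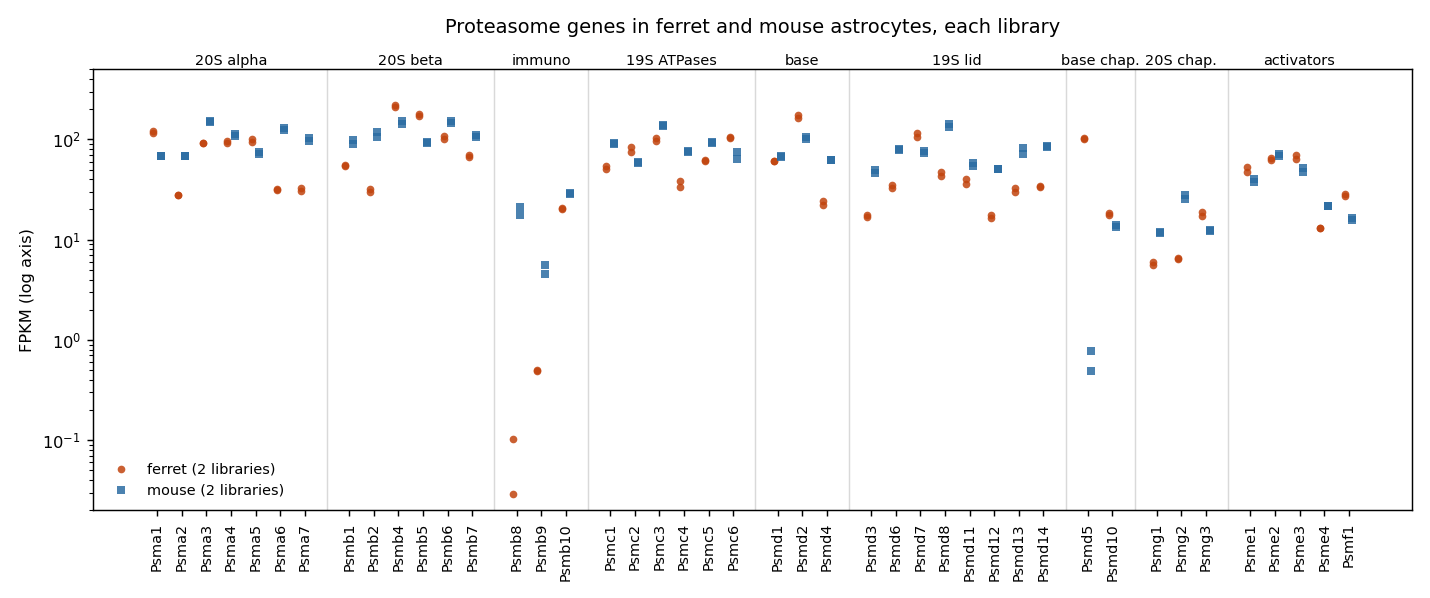
Level of each of the 43 proteasome genes tested, in FPKM on a log axis, with circles for the 2 ferret and squares for the 2 mouse libraries, grouped by role. Psmd5 lies near 100 FPKM in ferret and below 1 FPKM in mouse libraries, and Psmb8 and Psmb9 lie below 1 FPKM in ferret libraries.

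The number of calls in each direction depended on how the libraries were brought to a common scale, for the members as for all genes. When each library was scaled to an equal sum of FPKM, 5 members were called higher and 10 lower. Of all genes, 19.3% were called higher and 21.7% lower under this scaling. After quantile normalization, 5 members were again called higher and 10 lower, against 20.6% and 20.4% of all genes. When each library was scaled to an equal mean log2 level of the constitutive 20S subunits, 9 members were called higher and 7 lower. For all genes the shares were then 22.4% and 19.5%. These shares of all genes are the background for the group counts under the same scalings below. The members called lower under each of these scalings were all among the 15 above. The 7 genes called lower under every scaling were Psma6, Psma7, Psmb2, Psmb8, Psmb9, Psmd8 and Psmg2. Of these, Psmb8 and Psmb9 passed the filter on low values through the mouse alone and so had to differ.

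**Figure D2:**
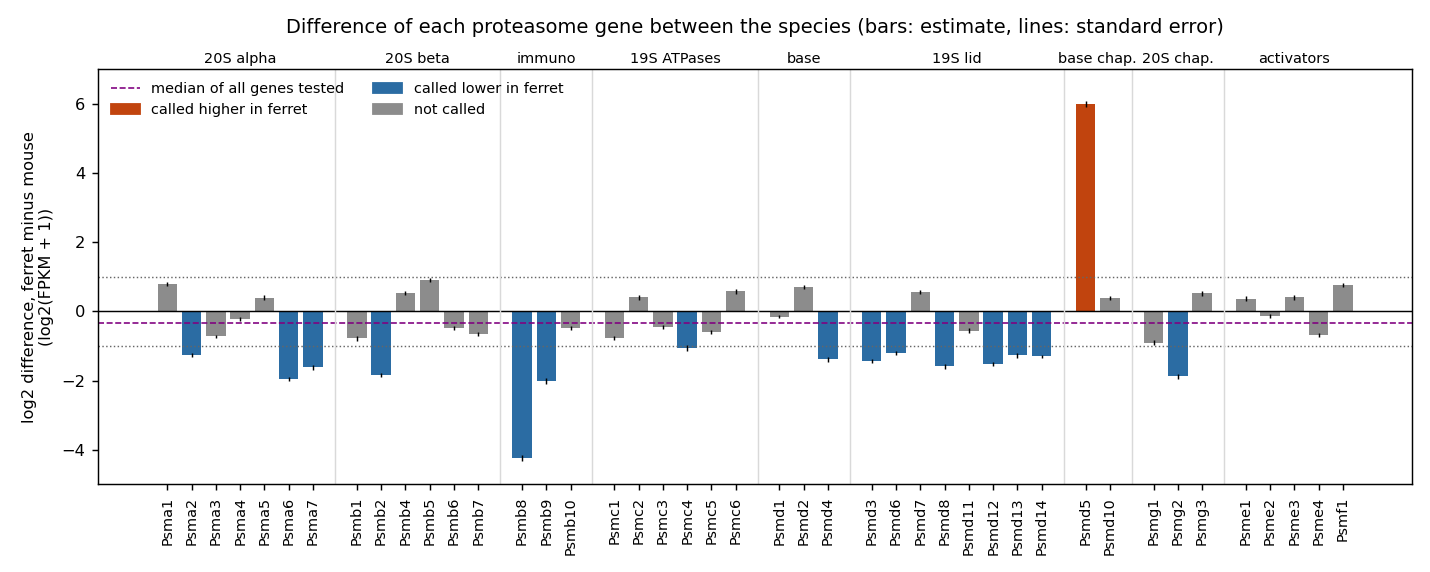
Log2 difference between ferret and mouse astrocytes for each of the 43 genes tested, on the log2(FPKM + 1) scale as deposited, with bars for the estimate, thin lines for its standard error, dotted lines at the size required for a call and a dashed line at the median of all genes. Psmd5 stands at 5.997 and Psmb8 at -4.25, whereas the other members lie between -2.01 and 0.92.

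Psmd5, also known as S5b, is a chaperone of the 19S base that holds the module of the ATPases Psmc1 and Psmc2 and the scaffold Psmd2 until it joins the rest of the base. It was singled out with its level in these libraries known, and its difference and its call above are therefore descriptions only. Psmd5 was at 101 and 104 FPKM in ferret astrocytes and at 0.489 and 0.767 FPKM in mouse astrocytes. Both ferret libraries lay within the range of the core subunits, whereas both mouse libraries lay below 1 FPKM. The ratio of the means was 163, and the log2 difference of 5.997 ranked 9th from the highest of the 10204 genes tested. Psmd5 passed the filter on low values through the ferret alone and so had to differ.

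Its partners differed far less between the species, with Psmc2 and Psmd2 higher and Psmc1 lower in ferret astrocytes as deposited. Psmc1 was at 50.6 and 54.6 FPKM in ferret and at 89.7 and 91.8 FPKM in mouse astrocytes, a log2 difference of -0.78 (SE 0.061, adjusted p = 9.09e-07). Psmc2 was at 74.0 and 83.0 FPKM in ferret and at 59.3 and 58.6 FPKM in mouse astrocytes (log2 difference 0.40, SE 0.067, adjusted p = 0.000265). Psmd2 was at 163 and 177 FPKM in ferret and at 102 and 105 FPKM in mouse astrocytes (log2 difference 0.71, SE 0.062, adjusted p = 2.05e-06). It was called higher under each of the other 3 scalings. All 3 partners were abundant in every library. Psmd5 exceeded the mean of its partners by 0.25 and 0.16 on the log2(FPKM + 1) scale in the ferret libraries and stood at -5.79 and -5.56 relative to it in the mouse libraries. The difference between the species was 5.88. With 2 libraries against 2, an exact permutation test cannot give a two-sided p below 0.333. Psmd10 (gankyrin), a base chaperone that binds Psmc4, was at 17.8 and 18.4 FPKM in ferret and at 13.2 and 13.9 FPKM in mouse astrocytes (log2 difference 0.39, SE 0.064, adjusted p = 0.000244). Both base chaperones were thus detected in ferret astrocytes, whereas in mouse astrocytes Psmd10 exceeded Psmd5.

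Mouse Psmd5 occupies chr2:34849734-34874968 on the minus strand of GRCm38 and has 10 exons, with a coding sequence of 1512 bases in a transcript of 4397 bases. The gene overlaps the 5′ end of Cutal on the opposite strand over 573 bp, and Cutal was at 0.360 and 0.497 FPKM. Among the annotated mouse transcripts searched, none of another gene matched 90% of the bases over 80% of the Psmd5 coding sequence. The first 60 coding bases of the mouse gene, at chr2:34870863-34870922 on the minus strand, are printed 5′ to 3′ with the start codon in capitals, as the gene whose low mouse level the comparison turns on.
Psmd5: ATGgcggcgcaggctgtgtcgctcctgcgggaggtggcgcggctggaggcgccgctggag

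Transcripts of the immunoproteasome subunits Psmb8 and Psmb9 were below 1 FPKM in ferret astrocytes and above it in mouse astrocytes, whereas Psmb10 was expressed in both. Psmb8, the inducible counterpart of the chymotrypsin-like subunit Psmb5, was at 0.0292 and 0.103 FPKM in ferret and at 20.9 and 17.6 FPKM in mouse astrocytes. Its log2 difference was -4.25 (SE 0.094, adjusted p = 1.47e-10), the 104th lowest of all genes tested. Psmb9, the inducible counterpart of the caspase-like subunit Psmb6, was at 0.491 and 0.504 FPKM in ferret and at 5.53 and 4.58 FPKM in mouse astrocytes (log2 difference -2.01, SE 0.092, adjusted p = 1.58e-08). Psmb8 and Psmb9 passed the filter on low values through the mouse alone and so had to differ. Psmb10, the inducible counterpart of the trypsin-like subunit Psmb7, was at 20.3 and 20.5 FPKM in ferret and at 28.8 and 29.0 FPKM in mouse astrocytes. Its log2 difference was -0.48 (SE 0.059, adjusted p = 2.69e-05) as deposited and turned to 0.04 when libraries were scaled to the 20S subunits.

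The constitutive counterparts were abundant in every library. Psmb5 was at 170.0 and 180.1 FPKM in ferret and at 91.1 and 93.3 FPKM in mouse astrocytes (log2 difference 0.92, SE 0.059, adjusted p = 1.94e-07). Psmb6 was at 101 and 109 FPKM in ferret and at 144 and 151 FPKM in mouse astrocytes, a log2 difference of -0.49 (SE 0.062, adjusted p = 3.73e-05) that turned to 0.05 under scaling to the 20S subunits. Psmb7 was at 66.6 and 70.1 FPKM in ferret and at 106 and 111 FPKM in mouse astrocytes (log2 difference -0.66, SE 0.059, adjusted p = 2.48e-06). Psmb5 was thus higher, and Psmb7 lower, in ferret astrocytes. The mouse genome holds a processed pseudogene of Psmb5, Gm3375 on chromosome 7, with 98.9% identity over the whole coding sequence and 37.9 and 38.5 FPKM of its own. With the FPKM of Gm3375 and other copies added, mouse Psmb5 was at 129 and 132 FPKM and its log2 difference was 0.42.

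A share within each library does not depend on the scaling between species. In ferret astrocytes the 3 immunoproteasome subunits accounted for 5.80% and 5.56% of the FPKM summed over all 6 catalytic subunits, and in mouse astrocytes for 13.9% and 12.6%. The means differed by -7.58 percentage points, ferret minus mouse (exact permutation p = 0.333, two-sided, the smallest that 2 against 2 allows). Psmb8 made up 0.0172% and 0.057% of the sum of Psmb8 and Psmb5 in ferret and 18.7% and 15.9% in mouse astrocytes. With the FPKM of the mouse copies added to Psmb5, the mouse shares were 14.0% and 11.8%. Psmb9 made up 0.483% and 0.461% of the sum of Psmb9 and Psmb6 in ferret and 3.70% and 2.93% in mouse astrocytes. The inducible subunit was thus the minor member of both pairs in every library. Psmb10 made up 23.3% and 22.6% of the sum of Psmb10 and Psmb7 in ferret astrocytes and 21.3% and 20.7% in mouse astrocytes. Unlike the other pairs, the Psmb10 pair stood at shares of more than 20% in all 4 libraries. Markers of microglia (15 of 15 genes) and of fibroblasts and meninges (8 of 8) were also lower in the ferret libraries. So were 5 of 6 endothelial markers, but 4 of the 6 had a mean under 1 FPKM in the mouse as well. The part of these cell types in the difference was not tested.

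**Figure D3:**
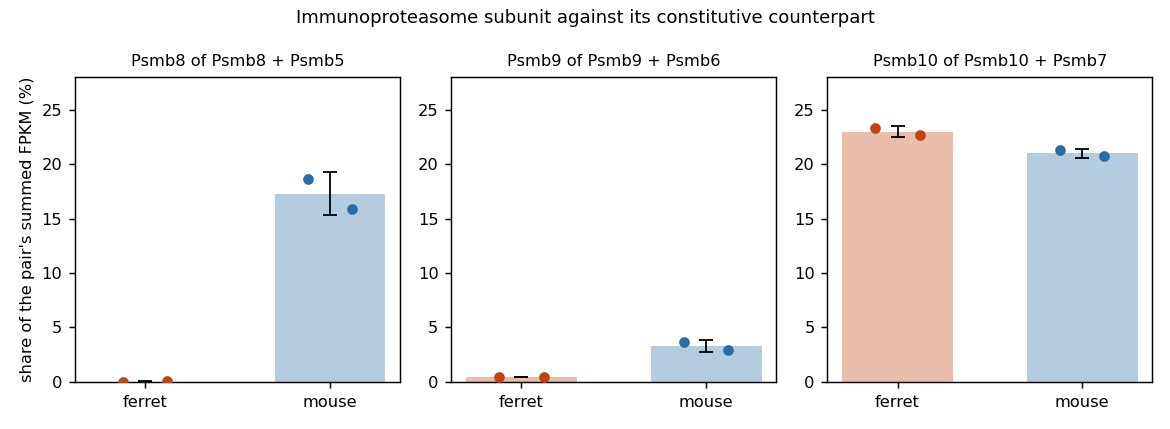
Share of each immunoproteasome subunit in the summed FPKM of itself and its constitutive counterpart, in percent, with bars for the mean, error bars for the SD and points for the 2 libraries of each species. The Psmb8 share is below 0.1% in ferret and near 17% in mouse libraries, whereas the Psmb10 share lies between 20% and 24% in all libraries. Mouse copies of the subunits are not added in these shares.

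In the mouse genome, Psmb8 (chr17:34197721-34201454, plus strand, 6 exons) and Psmb9 (chr17:34181987-34187764, minus strand, 6 exons) flank the peptide transporter gene Tap1 in the major histocompatibility complex, whereas Psmb10 lies elsewhere (chr8:105935735-105938444, minus strand, 8 exons). Psmb9 overlaps Tap1 on the opposite strand over 212 bp, and Tap1 was at 11.02 and 10.2 FPKM in mouse astrocytes. Psmb8 and Psmb10 each overlap an antisense gene, Gm20496 over 2139 bp and Gm16156 over 2710 bp, whose levels did not exceed 0.712 FPKM in any mouse library. The library kit marks strand, but the strand setting of the counting was not stated.

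Genes linked to interferon and to peptide loading were examined beside the immunoproteasome subunits, and of 10 such genes 4 were called lower in ferret astrocytes and none higher as deposited, against 30.1% lower and 13.1% higher of all genes. Irf9 and B2m were called lower under each of the other 3 scalings, while Ifngr1 and Tap1 lost their calls. B2m, the light chain of class I molecules, was at 44.4 and 46.5 FPKM in ferret and at 426 and 402 FPKM in mouse astrocytes (log2 difference -3.16, SE 0.060, adjusted p = 6.41e-11). Irf9, the DNA-binding part of the type I interferon-activated factor, was at 5.92 and 5.66 FPKM in ferret and at 20.3 and 18.1 FPKM in mouse astrocytes (log2 difference -1.57, SE 0.076, adjusted p = 2.31e-08). Ifngr1, a chain of the interferon gamma receptor, was at 11.5 and 9.94 FPKM in ferret and at 28.2 and 29.8 FPKM in mouse astrocytes (log2 difference -1.36, SE 0.078, adjusted p = 8.91e-08). Tap1 was the other gene called lower, with 4.15 and 4.74 FPKM in ferret astrocytes and a log2 difference of -1.09. Irf1, a factor that drives transcription of Psmb8 and Psmb9 in interferon-treated cells, was not among them and is named here after its values were seen. It was at 11.3 and 12.7 FPKM in ferret and at 12.1 and 11.02 FPKM in mouse astrocytes (log2 difference 0.04, SE 0.079, adjusted p = 0.602), and its libraries overlapped. The part of other cell types in the levels of these genes was not tested either.

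The subunits of the 20S core are built into the complex in equal number, but their transcripts spread more widely in ferret than in mouse astrocytes. Over the 13 constitutive 20S subunits, the highest level was 7.54 and 7.87 times the lowest in the ferret libraries and 2.21 and 2.26 times the lowest in the mouse libraries. The SD over these subunits on the log2(FPKM + 1) scale was 0.97 and 0.98 in ferret and 0.40 and 0.41 in mouse astrocytes. In both measures the libraries of a species were close to each other and the species did not overlap (exact permutation p = 0.333, two-sided). The median level of the 13 subunits was 91.0 FPKM in each ferret library and 106 and 111 FPKM in the mouse libraries. Of the 13, 4 (30.8%) were called lower in ferret astrocytes and none higher as deposited, which is near the 30.1% called lower among all genes, with a median log2 difference of -0.66. Under equal library sums and after quantile normalization, 3 were called lower and 2, Psma1 and Psmb5, higher, with medians of -0.28 and -0.32. Under scaling to these subunits themselves, 3 were called lower and 3 higher, with Psmb4 added, and the median was -0.12.

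At the low end, 4 subunits had means below 35 FPKM in ferret astrocytes, and none did in mouse astrocytes. Psma6 was at 31.9 and 31.5 FPKM in ferret and at 124 and 129 FPKM in mouse astrocytes (log2 difference -1.97, SE 0.057, adjusted p = 7.17e-10). Psma7 was at 30.3 and 32.7 FPKM in ferret and at 95.6 and 102 FPKM in mouse astrocytes (log2 difference -1.62, SE 0.065, adjusted p = 6.21e-09). Psma2 was at 27.6 and 27.9 FPKM in ferret and at 67.5 and 68.3 FPKM in mouse astrocytes (log2 difference -1.26, SE 0.056, adjusted p = 1.35e-08). These alpha subunits form part of the ring that gates the core. Psmb2, a non-catalytic beta subunit, was at 29.5 and 31.8 FPKM in ferret and at 106 and 119 FPKM in mouse astrocytes (log2 difference -1.84, SE 0.071, adjusted p = 4.80e-09). The ferret means of these 4 subunits differed from one another by less than 4 FPKM. Psma4, the alpha subunit with the smallest difference, was at 92.5 and 95.9 FPKM in ferret and at 109 and 113 FPKM in mouse astrocytes. Its log2 difference of -0.23 (SE 0.058, adjusted p = 0.00353) turned positive, between 0.12 and 0.30, under the other 3 scalings.

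The order of the subunits by level differed between the species. In ferret astrocytes the highest means were those of Psmb4 at 214 FPKM, Psmb5 at 175 FPKM and Psma1 at 118 FPKM. In mouse astrocytes Psma3 at 151 FPKM, Psmb6 at 148 FPKM and Psmb4 at 147 FPKM led, and their libraries overlapped one another. Psma1, the third highest in the ferret, shared the lowest place in the mouse with Psma2, both at 67.9 FPKM. Psma1, Psma3 and Psmb4 were named after their values were seen. Across the 13 subunits, Pearson's r between the species' mean log2 levels was 0.19 and Spearman's rho 0.07. Across all 43 members, r was 0.53 and rho 0.57, and without Psmd5 r was 0.76 over 42 genes, against 0.68 over all 10204 genes. Between the 2 libraries of a species, r over the members was at least 0.997. These are descriptions across genes, which share libraries and gene models and are not independent replicates.

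**Figure D4:**
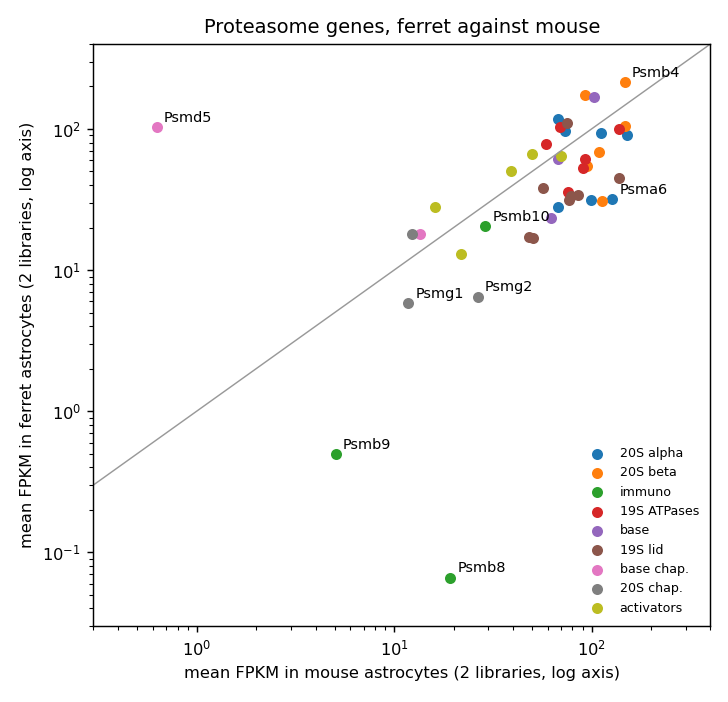
Mean FPKM of each of the 43 genes in ferret astrocytes against mouse astrocytes on log axes, coloured by role, with the line of equal level. Psmd5 stands far above the line and Psmb8 and Psmb9 far below it, and the core subunits between 68 and 151 FPKM in the mouse range from 28 to 214 FPKM in the ferret.

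The lid of the 19S cap, whose subunits Psmd14 and Psmd7 form the deubiquitinase, had 6 of 8 subunits called lower in ferret astrocytes and none higher as deposited, against 30.1% lower and 13.1% higher of all genes, with a median log2 difference of -1.29. Under equal library sums and after quantile normalization, 3 subunits (Psmd3, Psmd8 and Psmd12) were called lower and none higher. Under scaling to the 20S subunits, Psmd8 alone was called lower and Psmd7 was called higher. The median stayed negative under equal library sums (-0.90), quantile normalization (-0.93) and scaling to the 20S subunits (-0.75). Psmd8 was at 42.7 and 47.2 FPKM in ferret and at 134 and 141 FPKM in mouse astrocytes (log2 difference -1.59, SE 0.067, adjusted p = 8.60e-09). Psmd12 was at 17.6 and 16.5 FPKM in ferret and at 50.3 and 50.5 FPKM in mouse astrocytes (log2 difference -1.51, SE 0.061, adjusted p = 6.66e-09). Psmd3 was at 16.7 and 17.7 FPKM in ferret and at 46.6 and 49.7 FPKM in mouse astrocytes (log2 difference -1.43, SE 0.064, adjusted p = 1.37e-08). Psmd3, Psmd8 and Psmd12 are structural subunits of the lid. Psmd14, the deubiquitinase itself, was at 33.3 and 34.4 FPKM in ferret and at 84.0 and 86.3 FPKM in mouse astrocytes (log2 difference -1.30, SE 0.057, adjusted p = 1.19e-08). The 2 other lower calls were Psmd13, at 30.0 and 32.9 FPKM in ferret and at 72.1 and 82.4 FPKM in mouse astrocytes, and Psmd6, at 32.7 and 34.7 FPKM in ferret and at 79.8 and 78.4 FPKM in mouse astrocytes. Their log2 differences were -1.27 and -1.21. The lid subunits without a call were Psmd11, with a log2 difference of -0.56, and Psmd7.

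Psmd7, the catalytically inactive partner of Psmd14, was the only lid subunit with a positive difference as deposited. It was at 106 and 114 FPKM in ferret and at 73.7 and 75.9 FPKM in mouse astrocytes (log2 difference 0.55, SE 0.061, adjusted p = 1.21e-05). Relative to the mean of the other 7 lid subunits on the log2(FPKM + 1) scale, Psmd7 stood at 1.87 and 1.89 in the ferret libraries and at 0.06 in each mouse library. Psmd7 thus lay near the other lid subunits in mouse astrocytes and above them in ferret astrocytes, with a difference of 1.82 between the species (exact permutation p = 0.333, two-sided).

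The 6 ATPases of the base, which unfold substrates and open the core, included a single call as deposited, that of Psmc4, against 30.1% lower and 13.1% higher of all genes. Psmc4 was at 33.3 and 38.6 FPKM in ferret and at 74.1 and 77.4 FPKM in mouse astrocytes (log2 difference -1.06, SE 0.075, adjusted p = 4.33e-07), and without ferret library 1 its difference was -0.95 and was no longer called. Psmc4 also lost its call under equal library sums (-0.67), after quantile normalization (-0.72) and under scaling to the 20S subunits (-0.52), where Psmc6 was called higher. The other 5 ATPases ranged from -0.78 to 0.58 in log2 difference. The median of the 6 was -0.53 as deposited and reached 0.01 under scaling to the 20S subunits. Within a library, the mean log2 level of the lid minus that of the ATPases was -0.94 and -0.95 in ferret and -0.24 and -0.19 in mouse astrocytes. The lid thus stood lower relative to the ATPases in both ferret libraries (exact permutation p = 0.333, two-sided). Over all 17 cap subunits, the highest level was 9.74 and 10.7 times the lowest in ferret and 2.91 and 2.84 times the lowest in mouse libraries.

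Of the 3 base subunits without ATPase activity, Psmd4, a receptor for ubiquitin chains, was called lower. Psmd4 was at 22.4 and 24.2 FPKM in ferret and at 62.7 and 62.5 FPKM in mouse astrocytes (log2 difference -1.39, SE 0.062, adjusted p = 1.33e-08). The scaffold Psmd1 was at 61.3 and 60.6 FPKM in ferret and at 68.3 and 67.2 FPKM in mouse astrocytes. Its log2 difference of -0.15 (SE 0.055, adjusted p = 0.0273) turned to between 0.16 and 0.39 under the other scalings. Over the whole cap, 8 of 17 subunits were called lower and none higher as deposited, against 30.1% lower and 13.1% higher of all genes, with a median of -0.78. Under equal library sums and after quantile normalization, 4 were called lower and Psmd2 higher. Under scaling to the 20S subunits the balance turned, with Psmd8 called lower and Psmc6, Psmd2 and Psmd7 called higher. These are 5.88% lower and 17.6% higher, against 19.5% lower and 22.4% higher of all genes under that scaling.

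**Figure D5:**
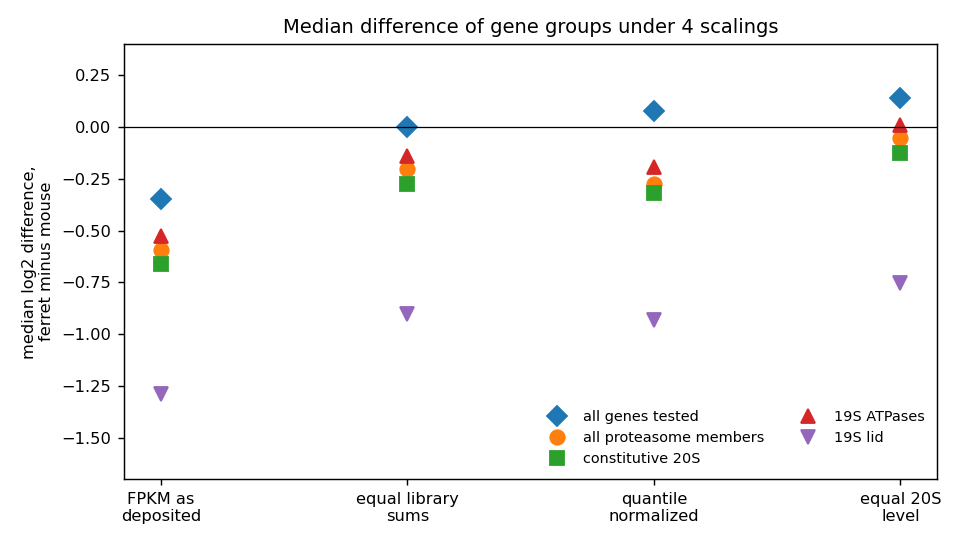
Median log2 difference between ferret and mouse astrocytes for all genes tested, all 43 members, the 13 constitutive 20S subunits, the 6 ATPases and the 8 lid subunits, as deposited and under 3 other scalings. The lid lies lowest under each scaling, from -1.29 to -0.75, and the ATPases reach 0.01 when libraries are scaled to the 20S subunits.

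The chaperones of the 20S core were among the less abundant members. Psmg2, which pairs with Psmg1 to assemble the alpha ring, was at 6.41 and 6.55 FPKM in ferret and at 25.2 and 27.8 FPKM in mouse astrocytes (log2 difference -1.88, SE 0.071, adjusted p = 4.40e-09). Its partner Psmg1, named here after its values were seen, was at 6.03 and 5.58 FPKM in ferret and at 11.9 and 11.6 FPKM in mouse astrocytes (log2 difference -0.91, SE 0.071, adjusted p = 9.38e-07). Psmg3, which acts with Psmg4, was at 17.3 and 18.7 FPKM in ferret and at 12.4 and 12.1 FPKM in mouse astrocytes (log2 difference 0.52, SE 0.067, adjusted p = 4.14e-05). The members of the Psmg1 and Psmg2 pair were close to each other in ferret astrocytes, whereas Psmg2 exceeded Psmg1 in mouse astrocytes.

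None of the alternative activators or the inhibitor protein was called in either direction on the values as deposited, and Psmf1 was called higher under each of the other 3 scalings. Psme1, the alpha subunit of the interferon-inducible activator PA28, was at 47.2 and 53.3 FPKM in ferret and at 40.2 and 37.6 FPKM in mouse astrocytes (log2 difference 0.36, SE 0.072, adjusted p = 0.000963). Psme2, its beta subunit, was at 62.4 and 65.7 FPKM in ferret and at 72.2 and 67.6 FPKM in mouse astrocytes. Psme2 was the only member tested with an adjusted p above 0.05 (log2 difference -0.12, SE 0.062, adjusted p = 0.0819), and it turned to between 0.18 and 0.41 under the other scalings. Within a library, log2 Psme1 minus log2 Psme2 was -0.39 and -0.30 in ferret and -0.83 in each mouse library. Psme2 exceeded Psme1 in all 4 libraries. Psme3, the nuclear activator PA28 gamma, was at 63.4 and 69.8 FPKM in ferret and at 52.0 and 47.8 FPKM in mouse astrocytes (log2 difference 0.41, SE 0.070, adjusted p = 0.000314). Psme4, the activator PA200, was at 13.0 and 13.1 FPKM in ferret and at 21.7 FPKM in each mouse library (log2 difference -0.69, SE 0.061, adjusted p = 2.27e-06). Psmf1 (PI31), first described as an inhibitor of the core, was at 28.5 and 27.4 FPKM in ferret and at 15.6 and 16.6 FPKM in mouse astrocytes (log2 difference 0.76, SE 0.064, adjusted p = 1.54e-06). Its log2 difference was 1.14 under equal library sums, 1.16 after quantile normalization and 1.28 under scaling to the 20S subunits.

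The mouse genome carries a near-identical copy of Psme2, Psme2b, with 99.3% identity over 717 coding bases, so that the split of reads between them is uncertain. Psme2b was at 6.54 and 6.25 FPKM in mouse astrocytes. With such copies added, the log2 difference of Psme2 was -0.25 (adjusted p = 0.00344).

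Genes that act with the proteasome but lie outside the name rule were taken from lists of 53 genes. Of these, 45 were tested, of which 2 were called higher and 10 lower, with a median log2 difference of -0.03. These are 4.44% higher and 22.2% lower, against 13.1% and 30.1% of all genes, whose median was -0.35. Under equal library sums and after quantile normalization, 8 were called higher (17.8%) and 5 lower (11.1%). Of all genes, 19.3% were higher and 21.7% lower under the former, and 20.6% and 20.4% after the latter. Under scaling to the 20S subunits, 11 (24.4%) were called higher and 4 (8.89%) lower, against 22.4% and 19.5% of all genes. The balance thus turned, and that of all genes shifted in the same direction. The counts in the lists that follow are those as deposited. Neither of the 2 measured subunits and chaperones outside the rule, Adrm1 and Pomp, was called, and 1 of 3 ubiquitin and E1 genes was called higher. Of 14 genes that handle ubiquitin at the 26S proteasome, 1 was called higher and 1 lower. Zfand5, a proteasome-binding activator, was at 146 and 137 FPKM in ferret and at 35.8 and 37.8 FPKM in mouse astrocytes (log2 difference 1.91, SE 0.062, adjusted p = 1.48e-09). Rad23b, a shuttle for ubiquitinated substrates, was at 29.8 and 27.4 FPKM in ferret and at 77.9 and 89.1 FPKM in mouse astrocytes (log2 difference -1.51, SE 0.077, adjusted p = 3.34e-08). Uba6, an E1 enzyme that activates ubiquitin, was at 17.1 and 16.2 FPKM in ferret and at 5.98 and 6.11 FPKM in mouse astrocytes (log2 difference 1.33, SE 0.068, adjusted p = 3.60e-08). Zfand5 and Uba6 were called higher under every scaling, whereas Rad23b lost its call under scaling to the 20S subunits. Of 9 genes of the p97 unfoldase and its cofactors, 2 were called lower, among them the cofactor Ufd1 at 15.0 and 15.7 FPKM in ferret and at 36.4 and 37.1 FPKM in mouse astrocytes (log2 difference -1.21, SE 0.061, adjusted p = 3.26e-08). Under the other 3 scalings none of the 9 was called lower and 2 or 3 were called higher.

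Of 7 genes that control transcription of proteasome genes, 3 were called lower and none higher as deposited, against 30.1% lower and 13.1% higher of all genes, and as the list was chosen with results known, this count is a description of these genes alone. Ngly1, the glycanase that processes the proteasome-inducing factor Nfe2l1, was at 3.87 and 3.72 FPKM in ferret and at 16.7 and 16.6 FPKM in mouse astrocytes (log2 difference -1.88, SE 0.068, adjusted p = 3.33e-09). Maff, a small Maf protein that pairs with Nfe2l1, was at 5.999 and 6.37 FPKM in ferret and at 22.0 and 22.3 FPKM in mouse astrocytes (log2 difference -1.69, SE 0.067, adjusted p = 5.70e-09). Mafk, another small Maf protein, was at 3.53 and 5.94 FPKM in ferret and at 12.7 and 12.9 FPKM in mouse astrocytes (log2 difference -1.30, SE 0.160, adjusted p = 2.87e-05). Nfe2l1 itself, named for its role after its values were seen, was not called, at 235 and 240 FPKM in ferret and at 156 and 166 FPKM in mouse astrocytes (log2 difference 0.55, SE 0.060, adjusted p = 1.03e-05). Ngly1 and Maff were called lower under each of the other 3 scalings, Mafk lost its call under each, and Nfe2l1 was called higher under scaling to the 20S subunits.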

How the data were processed

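Stranded poly(A) libraries of 2 ferret and 2 mouse astrocyte samples were sequenced, and the authors aligned reads to MusPutFur1.0 and GRCm38 (STAR 2.7.0f, per the submitters' processing notes) and deposited FPKM values per gene from Cufflinks 2.2.1. Read depth is unknown from these values, so no counting interval is given. Symbols were matched between species in upper case, keeping the row with the highest mean. Genes with a mean of 1 FPKM or more in either species were compared on log2(FPKM + 1) with limma 3.58.1 (R 4.3.3; empirical Bayes with trend) and Benjamini-Hochberg adjustment over all 10204 genes. A gene was called at an adjusted p below 0.05 and an absolute log2 difference above 1. Within-library measures were compared by exact permutation tests over every split of the libraries. Spearman's rho was computed with scipy 1.17.1. The text names Psmd5 and its partners, the catalytic pairs, the activators, each called member, the member of each role group with the largest and the smallest difference, and the 10 called pathway genes with the largest differences. The members and lists were chosen with earlier results of these data known. Tested on simulated data, the fit called 97.5% of 200 genes changed by 1.5 on the log2 scale in this comparison of 10204 genes, and 0 unchanged genes. The simulated spread was that between the duplicates, and unchanged genes had no shift between the species. The simulation therefore cannot show how many calls stem from the confounding of species with gene models. Mouse sequences were taken from GRCm38 with GENCODE M21, and copies were searched among its annotated transcripts (blastn 2.17.0). Alternatives were another pseudocount, no filter, 3 scalings, summed rows, the replicate number as a block, leaving out each library and adding mouse copies. Read counts in the study's supplement were not used here, and a few items are not reported here.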

Additional observations from a re-analysis of the deposited data

How the results depend on the processing

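The count of 1 member called higher rose to 5 under equal library sums, 5 under quantile normalization and 9 under scaling to the 20S subunits, and the 15 called lower dropped to 7 under the last. The median over the members, -0.59 as deposited, was -0.21, -0.27 and -0.055 under these scalings in the same order, while that of all genes was 0.00, 0.08 and 0.14. Among members that changed sign, Psma4 turned to 0.15, 0.12 and 0.30, Psmd1 to 0.24, 0.16 and 0.39 and Psme2 to 0.26, 0.18 and 0.41 in that order, and Psmb10 to 0.039 and Psmb6 to 0.050 under scaling to the 20S subunits alone. Psmd5 minus its partners was 7.05 with a pseudocount of 0.1 and 5.72 under scaling to the 20S subunits. The difference in immunoproteasome share was -6.42 percentage points with mouse copies added, an alternative chosen after seeing the data. The share of higher calls among all calls was 30.3% for all genes and 6.25% for members as deposited, 47.0% and 33.3% under equal library sums, 50.2% and 33.3% after quantile normalization, and 53.5% and 56.3% under scaling to the 20S subunits. Leaving out each library gave 1 member called higher each time, 14 to 15 called lower, medians from -0.66 to -0.58, Psmd5 minus its partners from 5.77 to 5.997 and share differences from -8.25 to -6.90. Of 408 alternative values for 34 named genes, 367 kept their direction and call, 19 lost the call, 11 gained it and 11 changed sign. Causes were not tested.

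The replicate numbers are shared between the species only as names, and the deviations of same-numbered libraries correlated at r = 0.01 over 10204 genes. With the number as a replicate block, 1 member was called higher and 15 lower. Such a block leaves the estimates as they are, so that Psmd5 minus its partners was 5.88 by construction. FPKM without read counts, 2 libraries a species and the complete confounding of species with gene models limit every value. Ferret gene models were not checked here.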

Other observations

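Beyond the 46 shared symbols, 8 mouse symbols matched the name rule and had no ferret row of the same symbol, so they were not compared. Psmb3, the remaining constitutive beta subunit, was at 124 and 132 FPKM in the mouse libraries, within the range of the other mouse core subunits. Psmd9 (p27), the base chaperone that binds Psmc3 and Psmc6, was at 13.7 and 12.8 FPKM, and Psmg4, the partner of Psmg3, at 19.4 and 15.4 FPKM. Psmd9 was thus near Psmd10 and well above Psmd5 in mouse astrocytes. Psme2b is described above, and the remaining 4 were pseudogene rows at or near 0.

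Of 44 mouse genes searched, 12 had at least 1 further annotated locus with 90% identity over 80% of the coding sequence. The annotated transcripts searched held 19 such copies, of which 7 had a mean of 1 FPKM or more. After Gm3375, the highest was Gm13835, a copy of Psma3 at 12.7 and 12.5 FPKM. Psmc3ip, matched by its symbol alone, was at 8.96 and 11.6 FPKM in ferret and at 3.15 and 3.47 FPKM in mouse astrocytes (log2 difference 1.38, SE 0.109, adjusted p = 9.71e-07).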
